A study of Cicer arietinum with 8 samples.

Results

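The genes described here are 4 chickpea transcription factor genes of families known for the control of growth, namely the OFP genes Ca_05458 and Ca_05970, the GRF gene Ca_00772 and the LOB gene Ca_06548. They are 4 of the 30978 loci measured, and they were chosen by identifier because their root transcript level differed by more than 2-fold between conditions of the study. The values below were therefore used to choose them, and they are given as a description. The family of each gene is the one printed beside its identifier in a picture of the study, where it was read by eye. In that picture the colours beside Ca_05458 and Ca_05970 appeared to run against the deposited values. Its labels may be shifted against its rows, and this was not resolved. The deposited values pair no identifier with a name or a position, so the families are taken on trust, and neither they nor the place of the genes in the genome was checked here. Each of the 4 identifiers stands alone at 1 locus, so that no value mixes in another annotated gene.

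Seedling roots of a drought-tolerant genotype, ICC4958 (DT), and of a drought-sensitive genotype, ICC1882 (DS), were used for RNA sequencing. Watered seedlings served as control (C), and for drought stress (D) water was withheld. According to the sample labels, the stress started at an age of 16 days and went on for 11 days, and all roots were taken at 27 days. The methods of the study give another age and length of the stress, so the timing is uncertain. Each of the 4 conditions, DS(C), DS(D), DT(C) and DT(D), has 2 libraries, but the deposited table holds 1 pooled value per locus and condition. The spread between the libraries, the depth behind a value and a test of a difference could therefore not be had, and every comparison below sets 1 pooled value beside another. The unit is FPKM, a fragment count that is divided by transcript length and by the number of mapped fragments. Whole roots were sampled, so a lower level from fewer cells of a type and one from less RNA per cell cannot be told apart.

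OFP stands for ovate family protein. The ovate family proteins are specific to plants, act mostly as repressors of transcription and are known from Arabidopsis and tomato for restraining cell elongation and shaping organs. The growth-regulating factors (GRF) are transcription factors that sustain cell proliferation in young organs, work together with a coactivator and are held down by a conserved microRNA in Arabidopsis. Some of the lateral organ boundaries (LOB) domain proteins mark the borders of organs, and several act below auxin in the start of lateral roots in Arabidopsis. Which of these roles the 4 chickpea genes have is not given by the deposited values.

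The LOB gene Ca_06548 had the highest level of the 4 genes. Its FPKM was 17.5 in DS(C), 29.7 in DS(D), 21.4 in DT(C) and 53.7 in DT(D). Both droughted values lay above both watered values, and within each water regime DT was above DS. The level in DT(D) was above that of 79.9% of the loci with an FPKM of at least 1 there, and in DS(C) above that of 54.0%. For the OFP gene Ca_05970 the FPKM was 15.6 in DS(C), 11.6 in DS(D), 4.46 in DT(C) and 8.45 in DT(D). Here both DS values lay above both DT values, and the values of the control roots differed by a factor of 3.49. In the order of expressed loci this gene stood above 51.1% in DS(C) and above 20.4% in DT(C).

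The FPKM of the GRF gene Ca_00772 was 3.61 in DS(C), 2.24 in DS(D), 2.63 in DT(C) and 5.57 in DT(D). DT(D) stood above the other conditions, and the highest and the lowest value differed by a factor of 2.49. The other OFP gene, Ca_05458, was close to the limit of expression, with an FPKM of 0.989 in DS(C), 0.650 in DS(D), 0.456 in DT(C) and 2.36 in DT(D). It passed an FPKM of 1 in DT(D) alone, where it still lay above only 10.05% of the expressed loci. The number of fragments behind these low values is not part of the deposited values. On the FPKM scale, which accounts for transcript length, the order LOB Ca_06548, OFP Ca_05970, GRF Ca_00772 and OFP Ca_05458 held in each of the 4 conditions. Whether neighbours in this order differ beyond the spread between libraries cannot be told from pooled values.

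**Figure D1:**
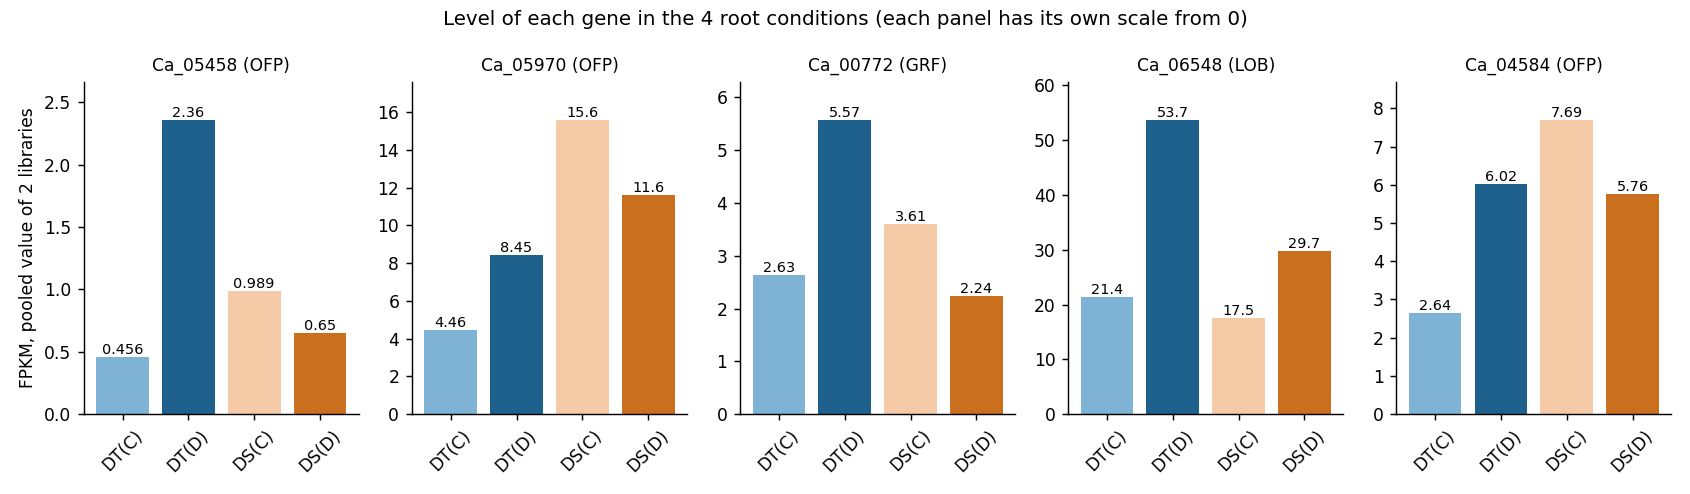
Bars give the pooled FPKM of each gene in the 4 conditions, with 1 panel and 1 scale from 0 for each gene and no error bars because the libraries are pooled. DT(D) is the highest bar for Ca_05458 (2.36), Ca_00772 (5.57) and Ca_06548 (53.7), whereas DS(C) is the highest for Ca_05970 (15.6) and for the OFP gene of the QTL-hotspot, Ca_04584 (7.69).

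DT(D) held the highest value for 3 of the 4 genes, compared with 29.3% of the 20745 loci with an FPKM of at least 1 in any condition. The exception was Ca_05970, which was highest in DS(C). Ca_05458 reached an FPKM of 1 in DT(D) alone, so it belongs to these loci only through its highest value. The genes were chosen for changes between these conditions, so nothing is read from this count. Both OFP genes were lowest in DT(C), as were 20.1% of all these loci, whereas the GRF gene was lowest in DS(D) and the LOB gene in DS(C). The FPKM values did not sum to the same total in each condition, and with all columns rescaled to the same sum Ca_05970 was highest in DS(D). The other highest and lowest conditions of the 4 genes were the same on that scale.

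In DT(D/C), which compares droughted with watered roots of the tolerant genotype, all 4 genes were higher under drought. The level was taken as changed at a log2 ratio of at least 1 or at most -1, in loci with an FPKM of at least 1 in either condition compared. By this rule 3 of the 4 genes were higher and none was lower, while 5.03% of the 20326 loci tested were higher and 8.88% were lower. The log2 ratio was 2.37 for OFP Ca_05458, 1.32 for LOB Ca_06548 and 1.08 for GRF Ca_00772, which correspond to 5.17-fold, 2.50-fold and 2.12-fold higher levels. OFP Ca_05970 had a log2 ratio of 0.92, just under the threshold, and the GRF gene was the one just above it. The median of the 4 log2 ratios was 1.20, and that of all loci tested was 0.02. The choice of the genes used this comparison, so nothing is read from these counts.

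The share of loci past the threshold depended on the level of expression, which bears on the low OFP gene in particular. In the lowest of 10 equal groups of mean expression, to which Ca_05458 belongs, DT(D/C) had 18.4% of the loci higher and 19.4% lower. In the group of the LOB gene, the seventh from below, 2.75% were higher and 6.70% lower. Adding 1 to both FPKM values brought the log2 ratio of Ca_05458 to 1.21 and that of the GRF gene to 0.86, which is under the threshold, whereas the ratio of the LOB gene was then 1.29.

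In DS(D/C), the same question in the sensitive genotype, none of the 4 genes was past the threshold, beside 8.21% of 20093 loci higher and 8.66% lower. The LOB gene was again higher under drought, with a log2 ratio of 0.76. The GRF gene had a log2 ratio of -0.69 and OFP Ca_05970 one of -0.42, so both were lower under drought in DS. OFP Ca_05458 was under an FPKM of 1 in both DS conditions and was not tested, and its log2 ratio was -0.60. These directions are affected by the scale. Columns of equal sum raise each log2 ratio of this comparison by 0.47. On that scale the LOB gene was past the threshold with 1.23, the GRF gene had -0.22, and Ca_05970 was at 0.04, on the other side of 0. The median log2 ratio of all loci in DS(D/C) was -0.01 without rescaling, but it ran from 0.53 for the lowest to -0.50 for the highest group of expression. In the group of the GRF gene this median was 0.21 and in that of Ca_05970 it was 0.11. Relative to their own group, the log2 ratios in DS were -0.90 for GRF, -0.54 for Ca_05970, -1.14 for Ca_05458 and 0.75 for LOB. The medians of the groups are those of the loci tested. Ca_05458 was not among them, so its value of -1.14 is not a call.

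**Figure D2:**
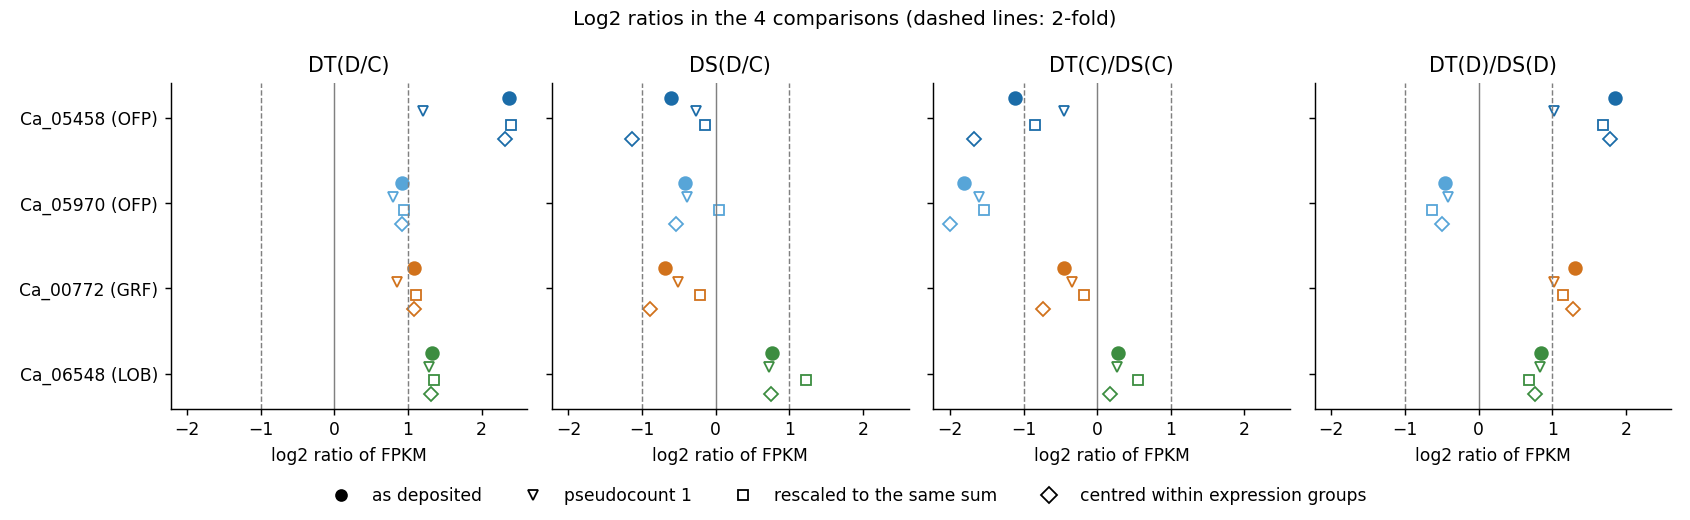
Each panel is 1 comparison, with the log2 ratio of FPKM on the horizontal axis and the 4 genes on the vertical axis. Filled circles are the ratios of the deposited values, and open symbols are the ratios with a pseudocount of 1, with columns of equal sum and with centring within 10 groups of expression. All symbols of DT(D/C) lie above 0, whereas in DS(D/C) those of Ca_05970 lie from -0.54 to 0.04.

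The drought responses of the genotypes were set against each other as the log2 ratio in DT minus that in DS. For the 3 genes tested in both genotypes this difference was 1.77 for GRF Ca_00772, 1.35 for OFP Ca_05970 and 0.56 for LOB Ca_06548. It was thus at least 1 for 2 of these 3 genes. A difference of at least 1 was found for 8.22% of the 19529 loci that were tested in both genotypes and above 0 in all values. Of these loci, 393 had a larger difference than the GRF gene, 799 a larger one than Ca_05970 and 4201 a larger one than the LOB gene. A difference of at least 1 was found for 9.34% of the loci in the expression group of the GRF gene, 6.08% in that of Ca_05970 and 5.64% in that of the LOB gene. With columns of equal sum the differences were 1.33 for GRF, 0.91 for Ca_05970 and 0.13 for LOB, so that Ca_05970 was under 1. OFP Ca_05458 was not tested in DS and passed the filter in DT only through its high value in DT(D), so it is not among these loci. Its difference was 2.98, which became 1.48 with a pseudocount of 1 and 2.54 with columns of equal sum. Whether any of these differences exceeds the spread between libraries was not tested. Of the 3 genes tested in both genotypes, GRF and Ca_05970 had log2 ratios above 0 in DT and below 0 in DS, as had 24.6% of all loci tested in both. None of the ratios in DS was past the threshold, and that of Ca_05970 was not in DT either.

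**Figure D3:**
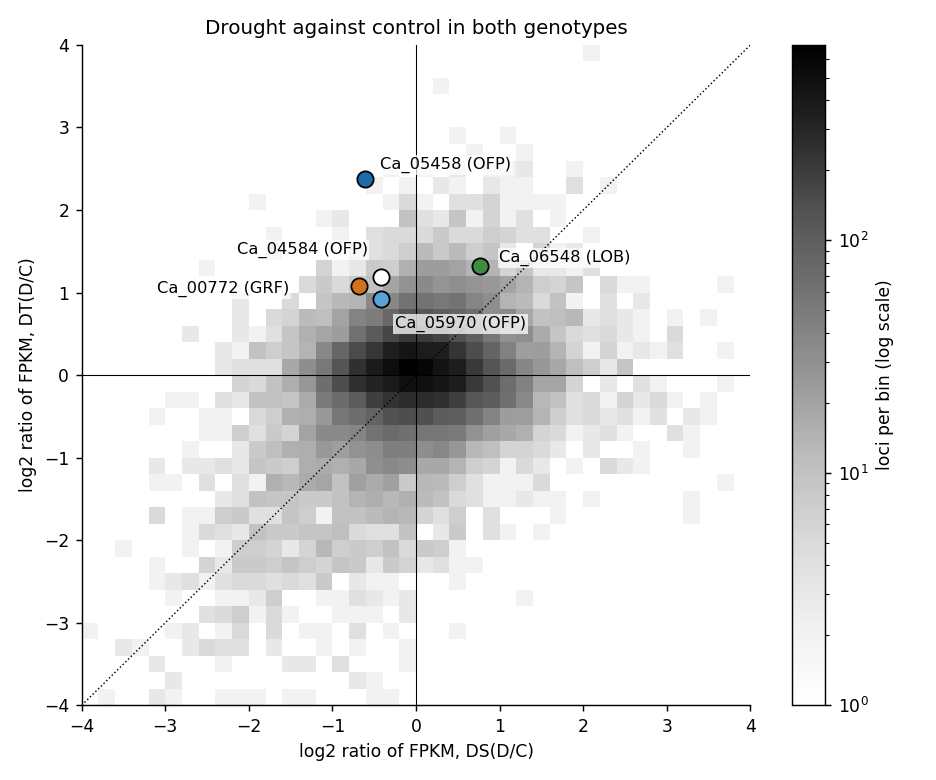
The grey scale counts the loci in bins of 0.2 by their log2 ratio in DS(D/C) on the horizontal axis and in DT(D/C) on the vertical axis, for 19371 of 19529 loci that lie within the axes. The dotted line marks equal responses, and circles mark the 4 genes and the OFP gene Ca_04584. All 5 circles lie above the line, Ca_05458 farthest from it and the LOB gene nearest.

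In DT(C)/DS(C), which compares the genotypes without stress, OFP Ca_05970 was past the threshold with a log2 ratio of -1.80 and was thus lower in DT. For comparison, 5.17% of 20231 loci were lower and 11.1% were higher in DT. In the expression group of Ca_05970, 2.65% of the loci were lower. The log2 ratio of this gene was -1.53 with columns of equal sum and -2.00 relative to its group. The GRF gene had a log2 ratio of -0.45 and the LOB gene one of 0.29. OFP Ca_05458, with 0.456 and 0.989 FPKM, was not tested, and its log2 ratio was -1.12.

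In DT(D)/DS(D), the comparison of the droughted genotypes, OFP Ca_05458 was higher in DT with a log2 ratio of 1.86 and the GRF gene with 1.31. Of 20310 loci, 6.73% were higher and 5.09% were lower. In the expression group of Ca_05458 these shares were 22.4% and 19.3%, and in that of the GRF gene 9.07% and 6.61%. Ca_05458 passed the filter only through its value in DT(D). With a pseudocount of 1 the log2 ratio was 1.02 for Ca_05458 and 1.02 for the GRF gene. The LOB gene was under the threshold with 0.85, and so was OFP Ca_05970 with -0.46. The comparison shares its values with those above, so its ratios follow from them.

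Averaged over both water regimes, the log2 ratio of DT to DS was -1.13 for OFP Ca_05970, 0.57 for LOB, 0.43 for GRF and 0.37 for OFP Ca_05458. Averaged over both genotypes, the log2 ratio of drought to control was 1.04 for LOB, 0.88 for OFP Ca_05458, 0.25 for OFP Ca_05970 and 0.20 for GRF. The LOB gene thus had the largest average response to drought of the 4, and Ca_05970 the largest average difference between genotypes. Both averages were smaller in size than the difference in response for GRF (1.77), OFP Ca_05970 (1.35) and OFP Ca_05458 (2.98). Of these, Ca_05458 was not tested in DS. For LOB (0.56) both averages were larger. An average and a difference of the same ratios are not on the same scale, so nothing is read from this.

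The patterns over the 4 conditions were compared on log2(FPKM + 1) after the mean of each gene was subtracted, with the Euclidean distance as the measure. The nearest pair among the 4 genes was OFP Ca_05458 and GRF Ca_00772, at a distance of 0.304. Of 17122 other expressed loci with a single identifier, 42 lay nearer to Ca_05458 than the GRF gene did, and 108 lay nearer to the GRF gene than Ca_05458 did. With a pseudocount of 0.1 these numbers were 52 and 2285. The OFP genes Ca_05458 and Ca_05970 were at a distance of 1.33, and 14048 loci lay nearer to Ca_05458. The farthest pair was Ca_05970 and the LOB gene, at 1.79.

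Among all other loci with a single identifier, the pattern nearest to that of the LOB gene was that of Ca_07506 (distance 0.0415), whose FPKM was 5.15 in DS(C), 8.97 in DS(D), 6.16 in DT(C) and 16.6 in DT(D). Next came Ca_01673 at 0.0818. Nearest to the GRF gene was Ca_05229 (0.0458), with an FPKM of 2.39, 1.37, 1.77 and 3.83 in the same order of conditions, followed by Ca_18415 at 0.126. Nearest to OFP Ca_05970 were Ca_10285 (0.117) and Ca_17486 (0.150), both at higher levels, with 139 FPKM in DS(C) for Ca_10285. Nearest to OFP Ca_05458 were Ca_07357 (0.106) and Ca_12823 (0.109). With a pseudocount of 0.1, neither of the loci named for Ca_05458 was among its nearest 2, whereas 1 of 2 was again found for each of the other genes. With 4 values per locus many loci are alike, and a small distance says nothing about function.

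**Figure D4:**
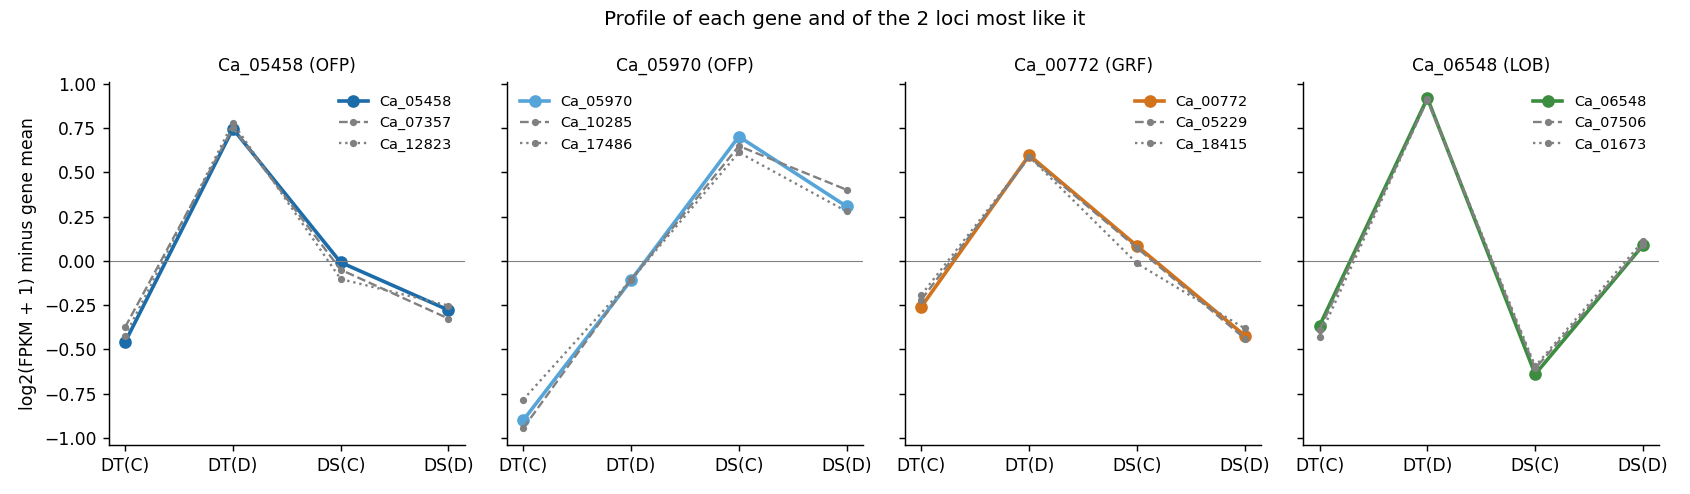
Each panel shows log2(FPKM + 1) minus the mean of the gene over the 4 conditions, for 1 of the 4 genes as a thick line and for the 2 loci nearest to it as dashed and dotted lines. The lines join conditions only to guide the eye. Ca_05458 and Ca_00772 peak in DT(D) and are below their mean in DS(D), the LOB gene peaks in DT(D) with a minimum in DS(C), and Ca_05970 is above its mean in both DS conditions.

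The text of the study names 12 other transcription factor genes in the drought QTL-hotspot, an interval of linkage group CaLG04 that holds several loci for drought tolerance traits. A further OFP gene, Ca_04584, is among them. Its FPKM was 7.69 in DS(C), 5.76 in DS(D), 2.64 in DT(C) and 6.02 in DT(D). Its lowest value was in DT(C), as for both other OFP genes and for 20.1% of all loci with an FPKM of at least 1 in any condition. Of the 12 genes, 2 were lowest in DT(C), Ca_04584 and the RWP-RK gene Ca_04456. Among the OFP genes, Ca_05458 was under an FPKM of 1 in DT(C). The log2 ratio of Ca_04584 in DT(D/C) was 1.19 and past the threshold, but it was 0.95 with a pseudocount of 1. In DS(D/C) it was within the threshold with -0.42. In DT(C)/DS(C) its log2 ratio was -1.54. Its difference in response between the genotypes was 1.61, and 496 of 19529 loci had a larger one. With columns of equal sum its ratio in DS(D/C) was 0.05, on the other side of 0. The distance between the patterns of Ca_04584 and Ca_05970 was 0.426. There were 54 loci nearer to Ca_05970 than Ca_04584 was, and 163 nearer to Ca_04584 than Ca_05970 was. Between Ca_04584 and Ca_05458 the distance was 0.908, with 6219 loci nearer to Ca_05458 and 4585 nearer to Ca_04584.

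Of the 12 genes of the QTL-hotspot, all were expressed, and Ca_04584 was the only one past the threshold upwards in DT(D/C), where 5.03% of all loci were higher and 8.88% lower. In that comparison 3 were lower, namely the MADS-box gene Ca_04518 (log2 ratio -1.002) and the AP2-EREBP genes Ca_04503 (-4.02) and Ca_04504 (-4.31). In DS(D/C) 3 were lower, again Ca_04503 (-4.19) and Ca_04504 (-3.59) with the MYB gene Ca_04621 (-1.30), and none was higher, beside 8.66% and 8.21% of all loci. In DT(C)/DS(C), the genes Ca_04503 (1.23), Ca_04504 (1.52) and the SNF2 gene Ca_04622 (1.06) were higher in DT, and Ca_04584 was the only one lower, beside 11.1% and 5.17% of all loci. In DT(D)/DS(D), 11 of them were tested, and Ca_04621 (1.60) was the only one past the threshold, beside 6.73% of all loci higher and 5.09% lower. Ca_04621 was in the lowest expression group, with an FPKM of 0.770 in DS(D). In that group 16.4% of the loci were lower in DS(D/C) and 22.4% higher in DT(D)/DS(D). Low droughted values were also found for Ca_04503, with an FPKM of 0.780 in DT(D) and 0.297 in DS(D). The ratios of Ca_04621 and Ca_04503 were not checked with a pseudocount. In DT(D/C) the 12 log2 ratios had a median of -0.17, compared with 1.20 for the OFP, GRF and LOB genes. For DS(D/C) the medians were 0.21 for the 12 genes and -0.42 for the 3 of the other genes that were tested. Above 0 in DT(D/C) and below 0 in DS(D/C) were 2 of the 12, Ca_04584 and Ca_04621, beside 24.6% of all loci. The 12 genes were set beside the 4 as other transcription factors with published identifiers, and no test of a difference between the lists was made. The 4 genes, unlike the 12, were chosen for changes past 2-fold in these values. Nothing is therefore read from the medians of the lists.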

How the data were processed

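RNA-seq of chickpea roots comprised 8 libraries, 2 per condition, which were assigned by the genotype and treatment in the labels. The authors cleaned reads with NGS QC Toolkit, aligned these to the kabuli genome using TopHat (TopHat2 2.1.1), assembled transcripts with Cufflinks 2.2.1 and Cuffmerge, and deposited FPKM values with both libraries of a condition pooled. The versions are those of the submitters' processing notes. The library normalization of Cuffdiff is not given in the sources used here. The pooled values allow no test, and no linear model was fitted.

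Log2 ratios of FPKM were taken without a pseudocount over loci with an FPKM of at least 1 in either condition compared, and were called at 1 or more and at -1 or less. A locus at 0 in 1 condition counted as changed towards the other. The share of all loci called is given for each comparison. Alternatives tried were no filter, a pseudocount of 1 or 0.1, an FPKM of at least 1 in both conditions, columns of equal sum, centring on the median or within 10 expression groups, and known loci only. The named genes are the 4 members, the 12 transcription factor genes that the text of the study places in the QTL-hotspot (values for the OFP gene and any past the threshold), and the 2 loci with the nearest pattern for each member. Members, lists and settings were chosen with earlier results of these data known. The RefSeq gene table at hand does not hold identifiers of this form (0 of the 4 matched), so no sequence is shown. Calculations used Python 3.11.15, numpy 2.4.6, pandas 2.3.3 and matplotlib 3.10.9, and were tested on simulated data.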

Additional observations from a re-analysis of the deposited data

Results flagged for a closer look

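For the 4 genes flagged here the log2 ratio of drought to control was above 0 in DT and below 0 in DS. Of all loci tested in both genotypes, 24.6% had such ratios, and so had the MYB gene Ca_04621 of the QTL-hotspot (0.75 and -1.30). Ca_04621 was past the threshold in DS(D/C). Of the QTL-hotspot genes, 2 had a log2 ratio in DT at least 1 above that in DS, namely Ca_04584 and Ca_04621. The difference of Ca_04621 was not worked out by itself, so its absence from the 4 is not a result. None of the 4 was past the threshold in DS(D/C), and Ca_05970 was not in DT(D/C) either. The log2 ratio in DT minus that in DS was 2.98 for OFP Ca_05458, 1.77 for GRF Ca_00772, 1.61 for OFP Ca_04584 and 1.35 for OFP Ca_05970. The difference was not tested in any of them, since each rests on 4 pooled values. Ca_05458 was under an FPKM of 1 in both DS conditions and was not tested there, and its difference was 1.48 with a pseudocount of 1. Ca_05970 and Ca_04584 were above 0 in DS with columns of equal sum (0.04 and 0.05).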

How the results depend on the processing

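No paired analysis was possible because the 2 libraries of each condition are pooled in 1 value, and for the same reason no library could be left out. Of the 4 genes, the number past the threshold went from 0 to 1 (LOB) in DS(D/C) with columns of equal sum, from 1 to 2 in DT(C)/DS(C) without a filter, where Ca_05458 entered, and from 2 to 1 in DT(D)/DS(D) with an FPKM of at least 1 in both conditions, where Ca_05458 left. In DT(D/C) it was 3 and went to 2 with a pseudocount of 1 (GRF below the threshold) and with an FPKM of at least 1 in both conditions. A difference between genotypes of at least 1 was found for 3 genes (Ca_05458 included, which was not tested in DS), and for 2 with columns of equal sum. No log2 ratio past the threshold changed sign under any alternative for the 4 genes or Ca_04584, but this was fixed in advance. A filter or a pseudocount cannot change a sign, and the shifts by rescaling and centring were smaller than the threshold. Over all loci, the number higher in DS(D/C) was 1650 and went to 4030 with columns of equal sum, 2883 without a filter, 919 with a pseudocount of 1, 982 with the filter in both conditions and 1054 for known loci. The number lower there went from 1741 to 951 with columns of equal sum. In DT(C)/DS(C), 2244 higher loci became 3552 with columns of equal sum, 3551 without a filter, 1458 with a pseudocount of 1 and 1444 with the filter in both. The 1045 lower loci there became 693 with columns of equal sum, 1693 without a filter and 678 for known loci. In DT(D/C), 1023 higher loci became 2019 without a filter, 633 with a pseudocount of 1 and 680 with the filter in both. In DT(D)/DS(D), 1367 higher loci became 2459, 894 and 890 in this order, and 1033 lower loci became 1869 without a filter, 603 with the filter in both and 600 for known loci. The depth behind each value is unknown.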
